A study of Mus musculus with 4 samples.

Results

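Rab GTPases of vesicle traffic are described here in CD8α+ intraepithelial lymphocytes of the mouse colon. The members were all gene symbols that begin with Rab followed directly by a digit and that were listed in all 4 libraries. They were 55 of the 63 such symbols listed in any library, and 55 of the 12698 genes listed in all 4. By name, 44 of them were Rab GTPases, 9 were proteins named for a Rab that are not GTPases themselves, and 2 were antisense transcripts. The study profiled single cells by droplet 3′ sequencing with unique molecular identifiers (UMIs). Sorted live CD3+ CD8alpha+ cells were either TCRbeta+ (TCRβ) or TCRgamma+ (read here as TCRγδ, as the sample titles have it), and each sort came from Tcf7WT and from Tcf7KO mice. All 4 libraries carried the strain label E8IcreTcf7fl/fl, so that wild type and knockout are told apart by the genotype label alone. E8I-driven Cre acts in CD8α-expressing cells. The labels give no age, sex or number of mice, and do not say whether both sorts came from the same animals. Each group was 1 library, so that no ratio between libraries has a replicate check.

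Rab GTPases are small switch proteins that mark membranes. Bound to GTP, each one sits on its own set of vesicles or organelles and recruits effectors that move, tether or fuse them. Exchange factors load GTP, GTPase-activating proteins end the active state, and a lipid anchor added after translation holds the protein on the membrane. In killer lymphocytes the pathway is best known for granule release: Rab27a brings cytotoxic granules to the plasma membrane through effectors of the synaptotagmin-like (Sytl) and Munc13 families, and Rab11-positive recycling endosomes supply part of the fusion machinery. Tcf7 encodes the transcription factor TCF-1.

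The 250 bases before the annotated start of 3 secretory GTPases are shown. Rab8b and Rab11a were picked because they passed in some alternatives of the comparison of granzyme-expressing cells below, where 0 of 40 GTPases passed in the main fit. Rab27a is the granule-docking member. The sequences are from RefSeq on GRCm38.p6, 5′ to 3′ on the gene's strand. Rab8b lies at chr9:66843664-66919687 on the minus strand, Rab11a at chr9:64715299-64737758 on the minus strand and Rab27a at chr9:73044854-73097629 on the plus strand in GENCODE M21. Capitals mark matches to an ETS motif (CCGGAAGT) or an E-box (CACGTG).
Rab8b, chr9:66919706-66919955: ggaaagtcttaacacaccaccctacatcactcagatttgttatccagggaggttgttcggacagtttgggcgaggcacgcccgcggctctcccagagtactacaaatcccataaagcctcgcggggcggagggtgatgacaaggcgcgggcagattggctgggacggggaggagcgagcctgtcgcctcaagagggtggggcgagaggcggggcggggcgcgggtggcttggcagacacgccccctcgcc
Rab11a, chr9:64737757-64738006: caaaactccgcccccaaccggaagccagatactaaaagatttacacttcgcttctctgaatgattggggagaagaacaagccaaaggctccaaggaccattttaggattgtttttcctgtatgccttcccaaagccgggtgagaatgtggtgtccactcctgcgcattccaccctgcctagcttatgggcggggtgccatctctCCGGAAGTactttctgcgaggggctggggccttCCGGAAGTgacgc
Rab27a, start of the gene, chr9:73044560-73044809: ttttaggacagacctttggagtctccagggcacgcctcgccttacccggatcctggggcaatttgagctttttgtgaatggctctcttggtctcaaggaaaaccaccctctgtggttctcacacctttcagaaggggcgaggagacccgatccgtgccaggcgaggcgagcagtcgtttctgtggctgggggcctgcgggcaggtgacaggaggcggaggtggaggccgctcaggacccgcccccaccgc
Rab27a, start inside the gene, chr9:73063898-73064147: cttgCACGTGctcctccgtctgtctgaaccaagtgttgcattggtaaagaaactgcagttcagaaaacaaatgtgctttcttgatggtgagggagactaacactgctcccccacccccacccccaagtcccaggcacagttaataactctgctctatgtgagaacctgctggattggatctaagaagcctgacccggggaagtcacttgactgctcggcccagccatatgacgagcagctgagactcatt
The Rab11a window held the ETS letters at positions -46 and -13 from the start site, and the window at the inner Rab27a start held the E-box at -246. The Rab8b window and the window at the start of the Rab27a gene held neither. In windows of 300 bases (250 before the start and 50 after it), searched on both strands for 39 of the 44 GTPases and for 27025 genes in all, the TCF/LEF letters CTTTGA were in 5 GTPases (12.8%, against 18.2% of all genes). The genes were Rab7, Rab13, Rab15, Rab31 and Rab43. The E-box, a palindrome, was in 6 GTPases (15.4%, against 8.09%). The ETS letters were in Rab11a and Rab24 (5.13%, against 4.31%), and the cyclic-AMP response letters TGACGTCA were in Rab5a and Rab25 (5.13%, against 2.03%). No motif contains another. For each gene the annotated start with the highest G+C content in its 250 upstream bases was taken. The median of these highest values was 63.2% over the 39 GTPases, against 52.8% over all genes. These matches are descriptions of letters and were not tied to a factor.

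Total counts were between 6195292 and 20289960 UMIs per library, over 1511 to 7603 cells, with a median of 2431 to 4366 UMIs per cell. Pairs of libraries shared 1 to 10 cell barcodes. Levels are in CPM, a gene's UMIs per 1000000 UMIs of the library, and series of 4 values follow the library order TCRβ Tcf7WT, TCRβ Tcf7KO, TCRγδ Tcf7WT, TCRγδ Tcf7KO unless they are named. The 5 T cell markers summed to 7800 to 9001 CPM. Trdc, the δ-chain constant gene, was at 1946 and 1905 CPM in the TCRγδ libraries and at 15.4 and 14.7 CPM in the TCRβ libraries. The β-chain constant genes separated the sorts far less. Trbc1 was at 789, 832, 667 and 874 CPM, and Trbc2 at 1933, 1834, 1135 and 1087 CPM. Tcf7 was at 148 CPM in TCRβ Tcf7WT, 107 CPM in TCRβ Tcf7KO, 45.7 CPM in TCRγδ Tcf7WT and 14.6 CPM in TCRγδ Tcf7KO. The labels do not say which exons are removed, and a 3′ count can come from a transcript that lacks them, so these counts do not check the deletion. Few cells carried colon epithelial markers. Cells with at least 1% of their UMIs from 12 such genes are called epithelial-like, and they numbered 11, 3, 18 and 18 in library order. They held 0.642%, 0.596%, 1.65% and 5.98% of all UMIs, and the summed epithelial markers were at 398, 371, 758 and 2116 CPM.

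Every library expressed a broad and similar set of Rab GTPases. A UMI counts each captured molecule once at its 3′ end, so transcript length does not enter a level in CPM. Levels of different genes can be set side by side only roughly, given the limits on paralogs and overlapping exons stated below. The 44 GTPases summed to 2481 CPM (95% exact Poisson interval 2460 to 2503, here and below counting error only) in TCRβ Tcf7WT, 2417 (2395 to 2440) in TCRβ Tcf7KO, 2409 (2370 to 2448) in TCRγδ Tcf7WT and 2460 (2424 to 2497) in TCRγδ Tcf7KO. The 10 most abundant members held between 59.4% and 60.3% of that sum in each library. The log2 ratio of the sums in Tcf7KO over Tcf7WT was -0.04 in the TCRβ sort and 0.03 in the TCRγδ sort, and the first turned to 0.03 under both edgeR TMM scaling and DESeq2 size factors. The ratio of TCRγδ over TCRβ was -0.04 in Tcf7WT, which turned to 0.03 and 0.02 under those scalings, and 0.03 in Tcf7KO.

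**Figure D1:**
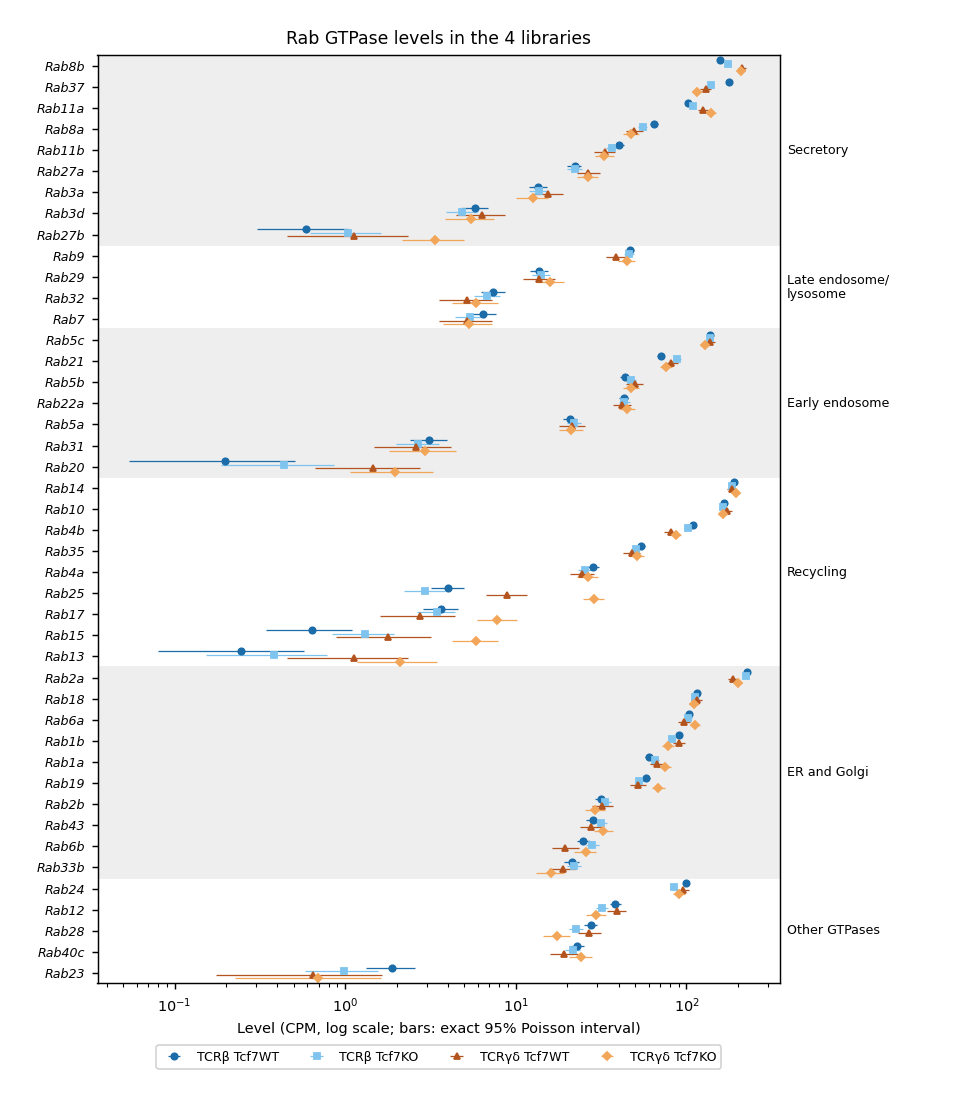
Level of each of the 44 Rab GTPases in each library in CPM on a log axis, grouped by role and ordered by mean level; bars are exact 95% Poisson intervals. Levels run from Rab2a at 187 to 226 CPM down to Rab20 at 0.197 to 1.95 CPM, and the 4 libraries lie close together for most members above 20 CPM.

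Secretory GTPases held 23.0% to 24.8% of the summed GTPase level, and 3 of the 9 were far above the others. Rab8b, which drives traffic from the Golgi and recycling endosomes to the surface, was at 157 CPM in TCRβ Tcf7WT, 175 in TCRβ Tcf7KO, 211 in TCRγδ Tcf7WT and 208 in TCRγδ Tcf7KO. Rab37, linked to regulated secretion in several cell types, was at 177, 139, 130 and 115 CPM in the same libraries. Rab11a, the recycling-endosome GTPase, was at 102, 110, 125 and 139 CPM. Rab8b and Rab11a were thus higher, and Rab37 lower, in both TCRγδ libraries than in both TCRβ libraries. Rab8a, the paralog of Rab8b, was at 64.3, 55.3, 49.6 and 47.5 CPM, and Rab11b, the paralog of Rab11a, was at 40.2, 36.6, 33.3 and 33.0 CPM. These paralogs ran from high in TCRβ Tcf7WT to low in TCRγδ Tcf7KO, the reverse of Rab8b and Rab11a at the ends of the order. Rab27a, the GTPase of granule docking, was at 22.1, 22.1, 26.6 and 26.3 CPM, which is below Rab8b by a wide margin in every library. Rab3a and Rab3d, which act in regulated exocytosis, were at 13.5, 13.7, 15.5 and 12.5 CPM and at 5.77, 4.84, 6.30 and 5.43 CPM. Rab27b, the paralog of Rab27a, was close to absent with 12, 19, 7 and 24 UMIs in all, or 0.591, 1.03, 1.13 and 3.34 CPM. The intervals of neighbouring libraries overlapped for Rab27a, Rab3a and Rab3d.

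Of the other roles, the endoplasmic reticulum and Golgi GTPases were the largest share at 29.3% to 31.2% of the summed level. Rab2a, which acts between the endoplasmic reticulum and the Golgi, was at 226, 223, 187 and 201 CPM in library order and was the most abundant member in both TCRβ libraries. Among recycling GTPases, Rab14 was at 184 to 195 CPM and Rab10, which delivers cargo to the surface, at 163 to 173 CPM. Rab5c was the leading early-endosome GTPase at 129 to 138 CPM, above Rab5b at 43.9 to 49.9 CPM and Rab5a at 20.9 to 21.9 CPM. The late-endosome GTPases had the smallest share, 2.61% to 2.997%, with Rab9 at 38.7 to 46.4 CPM. Rab7, the standard GTPase of late endosomes, was listed at 5.17 to 6.46 CPM. The files give one symbol per gene and do not say how reads were assigned to near-identical copies, so the levels of close paralogs are uncertain to that extent. In GENCODE M21, exons of 13 of the 55 members overlap exons of another listed gene on the opposite strand, among them Rab10 with Rab10os and Rab24 with Prelid1, and whether counting used strand is not given in the sources used here.

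The genotype comparison in the TCRβ sort asks what loss of Tcf7 does to these genes. Ratios are log2 ratios of CPM with an exact 95% interval conditional on the 2 counts. A gene is called when it differs at least 1.5-fold, its interval excludes no change and it has at least 50 UMIs over both libraries. In TCRβ cells 0 of 40 GTPases were called higher in Tcf7KO, where 1.9% of all 11777 genes were, and 1 was called lower, where 3.23% of all genes were. Rab13, Rab15, Rab20 and Rab27b had too few UMIs. The called gene was Rab23, an inhibitor of Hedgehog signalling, with 38 UMIs in Tcf7WT and 18 in Tcf7KO (log2 ratio -0.94, interval -1.83 to -0.09). It was not called after thinning cells to 1624 UMIs, with each cell weighing the same, with a minimum of 100 UMIs, or within either class of cells by Gzma (granzyme A) described below. The median ratio was -0.04 over the 40 GTPases and -0.07 over all genes.

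Below the 1.5-fold line, several abundant members differed beyond counting error in the TCRβ sort. Among secretory GTPases Rab37 was lower in Tcf7KO by a log2 ratio of -0.36 (-0.43 to -0.28) and Rab8a by -0.22 (-0.34 to -0.10). Rab8b was higher by 0.16 (0.09 to 0.23) and Rab11a by 0.10 (0.01 to 0.19). Rab27a was level at 0.00 (-0.20 to 0.20), an interval that stays within 1.5-fold but covers counting error only. With 1 library per genotype it cannot exclude such a change. The largest positive ratio among the 40 was that of Rab21, an early-endosome GTPase that carries integrins, at 0.32 (0.22 to 0.43), with 70.5 CPM in Tcf7WT and 88.2 CPM in Tcf7KO. Rab24, which is linked to autophagy, was at -0.24 (-0.34 to -0.14), Rab12 at -0.25 (-0.41 to -0.10) and Rab28 at -0.29 (-0.48 to -0.10). In all, 3 of the 40 GTPases had an interval above 0 and 8 had one below it, against 1363 and 3078 of all 11777 genes. Neither share of GTPases exceeded that of all genes. Rab12, Rab23, Rab24 and Rab28 were grouped as other GTPases, with no shared step of traffic, and Rab37 with the secretory ones.

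In the TCRγδ sort, 3 of 39 GTPases were called higher in Tcf7KO, where 6.44% of all 10512 genes were, and 1 was called lower, where 4.45% were. The 3 higher members were all low and in the recycling role. Rab25, an epithelial member of the Rab11 group, had 55 UMIs in Tcf7WT and 206 in Tcf7KO (8.88 and 28.7 CPM, log2 ratio 1.69, 1.26 to 2.15). Rab15 had 11 and 42 UMIs (1.72, 0.74 to 2.83), and Rab17, known from transcytosis in epithelium, had 17 and 56 UMIs (1.51, 0.70 to 2.38). Rab15 and Rab17 reached 50 UMIs through the library in which they were high. Rab28, a GTPase best known from the retina, was at 27.0 CPM in Tcf7WT and 17.4 CPM in Tcf7KO (-0.63, -0.98 to -0.29). Rab13, Rab20, Rab23, Rab27b and Rab31 had too few UMIs to be called.

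Epithelial-like cells held most UMIs of a few members. For Rab25 they held 90.1%, 88.9%, 90.9% and 95.6% of the UMIs in library order, and for Rab15 they held all UMIs but 1. For Rab27b they held 83.3%, 36.8%, 71.4% and 83.3%. For Rab3d they held 7.69%, 5.62%, 7.69% and 48.7%. By contrast they held at most 0.402% of Rab8b UMIs in any library and at most 0.0278% of Rab37 UMIs. For Rab11a they held 1.156%, 0.894%, 2.975% and 8.69% in library order. Rab17 was different from Rab25 and Rab15: 6 of its 56 UMIs in TCRγδ Tcf7KO were in epithelial-like cells, and the 56 lay in 53 cells with at most 2 in any cell.

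**Figure D2:**
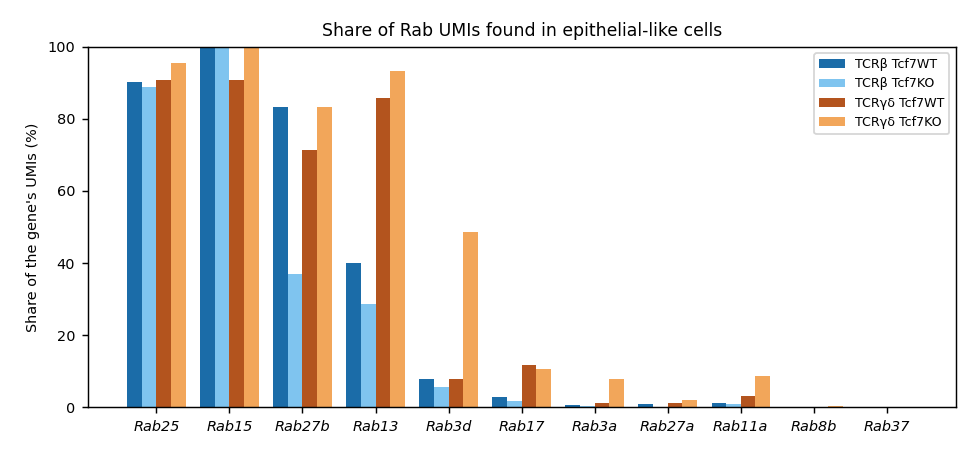
Percentage of each gene's UMIs that lay in epithelial-like cells, for 11 Rab GTPases and the 4 libraries. Rab25 and Rab15 are at 88.9% or more in every library, Rab3d stands at 48.7% in TCRγδ Tcf7KO only, and Rab8b and Rab37 are near 0.

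Without epithelial-like cells the called members of the TCRγδ genotype comparison changed. Rab25 and Rab15 had too few UMIs for a call, Rab17 was still called higher at 1.59 (0.73 to 2.53), and Rab28 was still called lower at -0.69 (-1.05 to -0.33). Rab3d was then called lower at -0.997 (-1.86 to -0.17), with 36 UMIs in Tcf7WT and 20 in Tcf7KO. The share of all genes called was then 2.23% higher and 5.1% lower. In the TCRβ sort Rab23 was the only GTPase called over all cells and again without those cells, where 1.87% of all genes were called higher and 2.95% lower. Between -0.16 and 0.16 lay the ratios of Rab8b (-0.02, -0.13 to 0.09), Rab11a (0.16, 0.02 to 0.30), Rab8a (-0.06, -0.29 to 0.17), Rab11b (-0.01, -0.29 to 0.27) and Rab27a (-0.02, -0.33 to 0.29) over all TCRγδ cells. Rab37 was at -0.18 (-0.32 to -0.03), Rab3a at -0.31 (-0.74 to 0.12) and Rab19 at 0.39 (0.19 to 0.60).

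**Figure D3:**
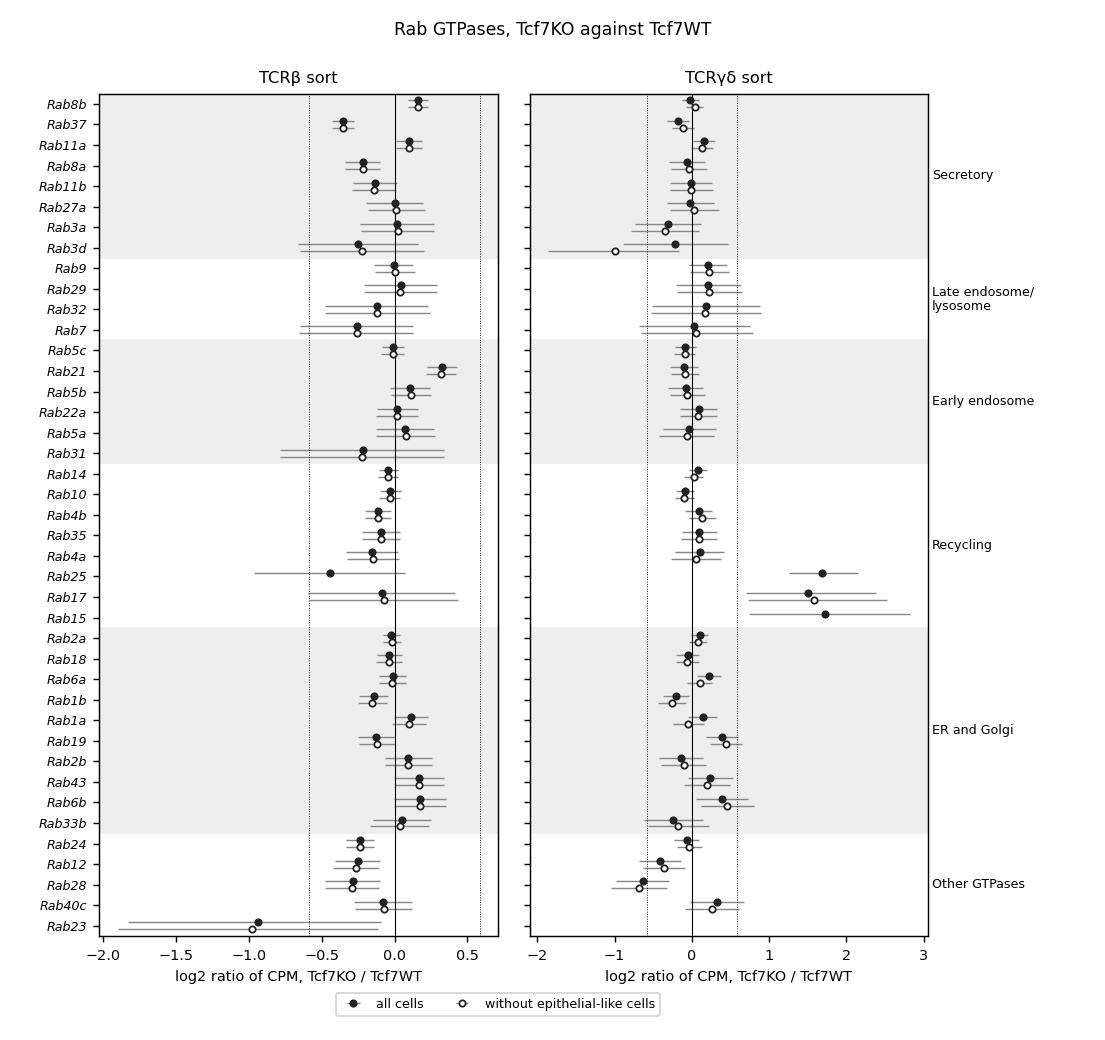
Log2 ratio of CPM in Tcf7KO over Tcf7WT for each GTPase with at least 50 UMIs, in the TCRβ sort (left) and the TCRγδ sort (right), with all cells (filled) and without epithelial-like cells (open); bars are exact 95% intervals and dotted lines mark 1.5-fold. Most members lie near 0, and Rab25, Rab15 and Rab17 stand apart in the TCRγδ sort.

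The 2 genotype comparisons share no library. Their ratios had the same sign in 17 of the 38 GTPases with at least 50 UMIs in both (44.7%), of which 11 were lower in both, against 6439 of 10307 genes of all kinds (62.5%). Without epithelial-like cells the count was 19 of 37 (51.4%, against 64.7% of all genes). Signs depend on the scaling. The all-gene median was -0.069 (TCRβ) and -0.033 (TCRγδ) in CPM, and -0.002 and 0.010 under TMM scaling. Signs were counted in CPM only, where the shift below no change adds to the agreement over all genes. Rab37, Rab1b, Rab12 and Rab28 were lower in Tcf7KO in both sorts with intervals below 0 on the CPM scale. The TCRγδ ratio of Rab37 was 0.042 (-0.190 to 0.275) in thinned cells and -0.11 (-0.25 to 0.03) without epithelial-like cells. Rab11a was higher in both with intervals above 0 over all cells, but its TCRγδ ratio was -0.06 in cells thinned to equal depth. Without epithelial-like cells 0 of 8 secretory GTPases, Rab11a among them, had a TCRγδ genotype interval above 0.

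The sort comparison sets TCRγδ against TCRβ cells of the same genotype. In Tcf7WT, 1 of 39 GTPases was called higher in TCRγδ cells, where 7.97% of all 11301 genes were, and 0 were called lower, where 7.07% were. The called gene was Rab25 (1.15, 0.63 to 1.67), and without epithelial-like cells no GTPase was called in either direction, where 6.93% of all genes were called higher and 7.53% lower. In Tcf7KO, 3 of 40 were called higher, where 10.7% of all 11332 genes were, and 0 were called lower, where 7.47% were. They were Rab25 (3.29), Rab15 (2.16) and Rab17 (1.19, 0.64 to 1.73), of which Rab17 was still called without epithelial-like cells (1.13, 0.56 to 1.69), against 6.22% of all genes higher and 8.72% lower.

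The 8 secretory GTPases with at least 50 UMIs differed between the sorts by less than 1.5-fold over all cells. Rab8b was higher in TCRγδ cells by 0.43 (0.33 to 0.52) in Tcf7WT and 0.24 (0.16 to 0.33) in Tcf7KO. Rab11a was higher by 0.29 (0.17 to 0.41) and 0.35 (0.24 to 0.46). Rab27a was at 0.27 (0.00 to 0.53) and 0.25 (-0.01 to 0.50). Rab37 was lower by -0.45 (-0.56 to -0.34) and -0.27 (-0.39 to -0.16), and Rab8a by -0.38 (-0.56 to -0.20) and -0.22 (-0.40 to -0.04). Rab11b was at -0.27 (-0.50 to -0.05) and -0.15 (-0.37 to 0.07). Rab3d was at 0.127 (-0.435 to 0.661) and 0.16 (-0.42 to 0.72), and its Tcf7KO ratio was -0.64 (-1.42 to 0.08) without epithelial-like cells and 1.47 (0.51 to 2.32) in Gzma-negative cells. Rab27b, below 50 UMIs, had 24 UMIs in TCRγδ and 19 in TCRβ cells of Tcf7KO (1.69, 0.76 to 2.64), of which 4 and 12 lay outside epithelial-like cells. These 2 sort comparisons share no library either, and ratios of 21 of 39 GTPases had the same sign in both (53.8%), against 8190 of 11028 genes (74.3%). The all-gene medians were -0.088 and -0.066 in CPM, and -0.015 and -0.018 under TMM scaling, so the same limit on signs holds. Among the other roles Rab4b, a recycling GTPase, was lower at -0.44 (-0.58 to -0.30) and -0.23 (-0.37 to -0.10), and Rab2a at -0.27 (-0.37 to -0.18) and -0.15 (-0.24 to -0.06). Rab19, placed with the Golgi GTPases, was at -0.15 (-0.33 to 0.03) in Tcf7WT and 0.37 (0.21 to 0.52) in Tcf7KO.

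**Figure D4:**
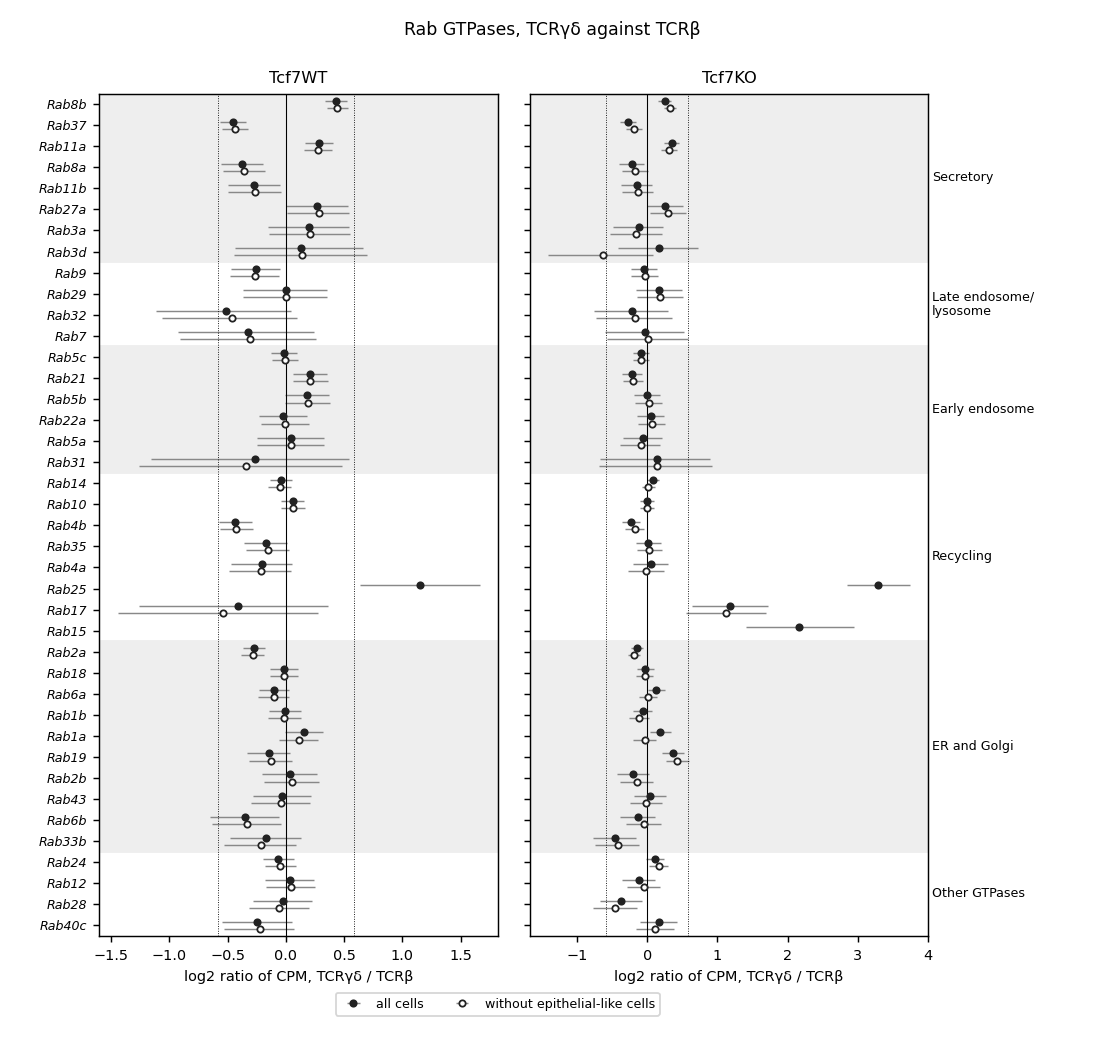
Log2 ratio of CPM in TCRγδ over TCRβ cells for each GTPase with at least 50 UMIs, in Tcf7WT (left) and Tcf7KO (right), with all cells (filled) and without epithelial-like cells (open); bars are exact 95% intervals, dotted lines mark 1.5-fold and the panels have their own axes. Rab8b and Rab11a lie above 0 and Rab37, Rab8a and Rab4b below 0 in both panels.

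Gzma codes for the granule protease granzyme A. Cells with at least 1 Gzma UMI were compared with cells with 0. Gzma-positive cells were 756 of 7603 in TCRβ Tcf7WT (9.94%, Clopper-Pearson interval 9.28% to 10.6%), 1883 of 5785 in TCRβ Tcf7KO (32.5%, 31.3% to 33.8%), 1159 of 1888 in TCRγδ Tcf7WT (61.4%, 59.2% to 63.6%) and 1326 of 1511 in TCRγδ Tcf7KO (87.8%, 86.0% to 89.4%). Thinned to 1624 UMIs per cell, with 759, 489, 300 and 28 shallower cells left out, the shares were 9.21%, 28.5%, 58.9% and 83.7%. In epithelial-like cells, a type not expected to express Gzma, the thinned counts were 0 of 10, 0 of 3, 1 of 11 and 0 of 18 cells, and unthinned 1 of 11, 1 of 3, 3 of 18 and 10 of 18, with median depths of 11086, 38231, 2559 and 23409 UMIs. The libraries therefore hold very different shares of Gzma-positive cells. UMIs were summed per library and class, without Gzma, and the 8 sums were tested with edgeR's quasi-likelihood test with the library as a block.

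Across the 4 libraries 0 of 40 GTPases passed an adjusted p of 0.05, where 1.83% of all 11241 genes were higher and 1.4% lower. At an unadjusted p under 0.05, 4 of the 40 GTPases were higher in Gzma-positive cells (Rab8b, Rab11a, Rab19 and Rab24) and 0 were lower. Of all 11241 genes 1039 were higher and 1065 lower at that threshold, so the share of GTPases that were higher was close to that of all genes. DESeq2 called 0 GTPases (against 2.04% of all genes higher and 1.56% lower, 3.59% in all) and had 3 at an unadjusted p under 0.05. Rab8b was at 205 CPM in Gzma-positive and 151 CPM in Gzma-negative cells of TCRβ Tcf7WT. It was at 198 and 164 CPM in TCRβ Tcf7KO, at 222 and 200.2 CPM in TCRγδ Tcf7WT, and at 216 and 185 CPM in TCRγδ Tcf7KO. The positive class was higher in 4 of 4 libraries, and the fitted log2 change was 0.29 ± 0.07 (SE, edgeR adjusted p = 0.0531). For Rab11a the 2 classes were at 126 and 99.7, 123 and 103, 132 and 117, and 144 and 132 CPM in the same order of libraries. It too was higher in 4 of 4 (0.24 ± 0.07, edgeR adjusted p = 0.0888). Rab19 was higher in 4 of 4 at 0.30 ± 0.08 (edgeR adjusted p = 0.0807), and so was Rab24 at 0.19 ± 0.07 (edgeR adjusted p = 0.182).

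The other secretory members moved less evenly. Rab27a was higher in 4 of 4 libraries, at log2 ratios of 0.11, 0.04, 0.54 and 0.26, with a fitted change of 0.23 ± 0.12 (edgeR adjusted p = 0.369). Rab37 was lower in 3 of 4, with ratios of -0.18, 0.01, -0.43 and -0.04 and a fitted change of -0.14 ± 0.08 (edgeR adjusted p = 0.404). Rab8a (0.04), Rab11b (-0.02) and Rab3a (-0.003) had edgeR adjusted p values of 0.972, 0.996 and 0.999. Rab3d had a fitted change of -0.55 ± 0.32 (edgeR adjusted p = 0.416), and its ratio was -1.76 in TCRγδ Tcf7KO, where the 8 epithelial-like cells among 185 Gzma-negative cells held 18.5% of the UMIs of that class and the 10 in the positive class held 3.96%. Rab27b, Rab13, Rab20 and Rab23 were too sparse for a test. Over the 40 tested GTPases the median change was 0.05, with 27 above 0 and 13 below, and over all genes it was -0.01.

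**Figure D5:**
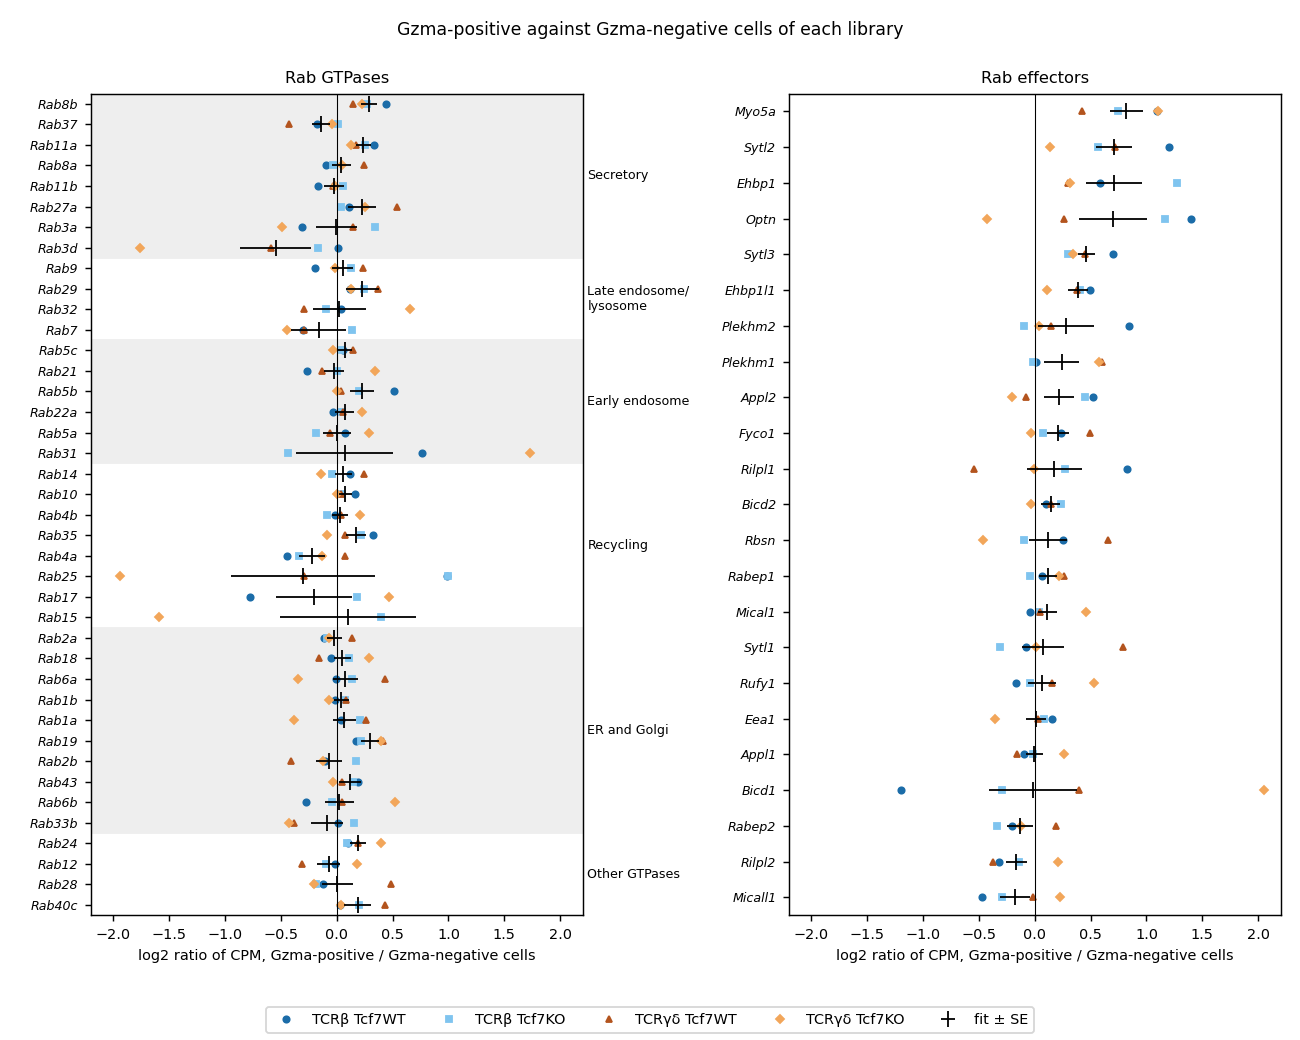
Log2 ratio of CPM in Gzma-positive over Gzma-negative cells of each library (symbols) with the edgeR fit ± SE (black), for the 40 tested Rab GTPases by role (left) and the 23 tested Rab effectors (right). Rab8b, Rab11a, Rab19 and Rab24 lie above 0 in every library, and the fits of Myo5a, Sytl2 and Sytl3 lie at 0.82, 0.71 and 0.46.

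Without epithelial-like cells, a fit chosen after seeing the data, Rab8b and Rab11a passed the threshold and no other GTPase did. Rab8b was then at 0.25 ± 0.07 (edgeR adjusted p = 0.0379) and Rab11a at 0.27 ± 0.06 (edgeR adjusted p = 0.0175), where 3.92% of all 10944 genes were called higher and 4.05% lower. The per-library ratios of Rab8b were then 0.45, 0.27, 0.14 and 0.01, so that TCRγδ Tcf7KO no longer showed a difference. Those of Rab11a were 0.34, 0.24, 0.21 and 0.18. Both calls were lost when TCRβ Tcf7WT was also left out (edgeR adjusted p = 0.242 for Rab8b and 0.121 for Rab11a) or TCRβ Tcf7KO was (0.167 and 0.0932), and were kept without either TCRγδ library. In thinned cells of TCRβ Tcf7WT, Rab8b was at 236 CPM (202 to 276) in the 435 cells with 10 or more Gzma UMIs and at 150 CPM (143 to 158) in the 6214 cells with 0. Naive or memory T cell markers were lower in the positive class of TCRβ Tcf7WT (75.7 against 178 CPM summed over 5 genes) and of TCRβ Tcf7KO (86.4 against 217 CPM), and were at 21.5 against 24.0 CPM and 5.17 against 25.0 CPM in TCRγδ Tcf7WT and Tcf7KO. Of 7 myeloid markers 2, Cd68 and Itgax, were listed in each library, and their sum was 71.7, 26.0, 74.3 and 29.4 CPM in the positive and 8.05, 8.01, 30.4 and 23.0 CPM in the negative class in library order. Cycling markers were at 181, 116, 72.7 and 173 CPM against 88.6, 128, 123 and 153 CPM. The part of these markers in the result was not tested.

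Within a Gzma class the sort ratios of Rab8b and its TCRβ genotype ratio were smaller in size than over all cells. The sort ratio was little changed in Gzma-negative cells of Tcf7WT. The TCRγδ genotype ratio of Rab8b, small over all cells, lay between -0.116 and 0.044 over all alternatives, which include both classes. In Gzma-positive cells its ratio of TCRγδ over TCRβ was 0.11 (-0.05 to 0.28) in Tcf7WT, and in Gzma-negative cells it was 0.41 (0.27 to 0.55). In Tcf7KO the 2 values were 0.13 (0.01 to 0.24) and 0.17 (-0.05 to 0.39). Its genotype ratio in TCRβ cells was -0.05 (-0.21 to 0.11) in Gzma-positive cells and 0.12 (0.04 to 0.20) in Gzma-negative cells. Rab37 was lower in Tcf7KO in both classes of TCRβ cells, at -0.18 (-0.36 to -0.00) and -0.37 (-0.46 to -0.29), while in TCRγδ cells it was at 0.01 (-0.16 to 0.19) and -0.38 (-0.69 to -0.08). Its sort ratio was -0.46 and -0.21 in the positive and negative cells of Tcf7WT and -0.27 and -0.21 in those of Tcf7KO. Rab21 was higher in Tcf7KO in both classes of TCRβ cells, at 0.57 (0.29 to 0.85) and 0.30. The TCRγδ genotype ratio of Rab17 was 2.15 in Gzma-positive cells, and in Gzma-negative cells it had 6 UMIs in Tcf7KO and 10 in Tcf7WT, too few for a ratio. That of Rab28 was -0.82 (-1.22 to -0.43) in Gzma-positive and -0.13 (-0.96 to 0.64) in Gzma-negative cells. Differences between classes were not tested.

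Among proteins named for a Rab, Rab3ip, the exchange factor of Rab8, was at 70.2, 75.0, 68.1 and 98.3 CPM in library order. TCRγδ Tcf7KO was highest, with a genotype ratio of 0.53 (0.35 to 0.71) that stayed below 1.5-fold. Rab11fip4, a Rab11 effector, was at 8.58, 7.78, 14.0 and 9.05 CPM, which was called higher in TCRγδ over TCRβ cells of Tcf7WT (0.71) and lower in Tcf7KO over Tcf7WT in the TCRγδ sort (-0.63). Rab5if was at 6.85, 6.70, 3.87 and 8.07 CPM, which gave the opposite calls in those comparisons (-0.82 and 1.06). TCRγδ Tcf7WT was the library that stood apart for both genes, and their ratios without epithelial-like cells were 0.73 and -0.61 for Rab11fip4 and -0.78 and 1.12 for Rab5if. In the Gzma comparison 0 of the 8 tested proteins passed (against 1.83% of all genes higher and 1.4% lower), and Rab11fip4 had a fitted change of 0.58 ± 0.23 (edgeR adjusted p = 0.216). Rab3gap1 and Rab3gap2, which act on Rab3 and Rab18, were at 61.4 to 70.2 CPM and 25.6 to 27.5 CPM. The antisense transcripts Rab10os and Rab26os were at 50.7 to 57.3 CPM and 9.60 to 11.05 CPM.

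Among the genes that act on Rabs, those that passed in the Gzma comparison were effectors. Of 23 tested effectors, 3 rose in Gzma-positive cells and 0 fell, against 1.83% and 1.4% of all genes. Sytl2, which binds Rab27 on granules, was at 34.8, 24.9, 37.4 and 35.2 CPM in the positive and 15.2, 16.9, 22.8 and 32.0 CPM in the negative class in library order (0.71 ± 0.16, edgeR adjusted p = 0.0472). Sytl3, of the same family, was at 206, 158, 229 and 182 CPM against 127, 129, 168 and 144 CPM (0.46 ± 0.08, edgeR adjusted p = 0.0189). Myo5a, the myosin motor that Rab27a recruits in pigment cells, was at 27.7, 21.3, 29.4 and 19.4 CPM against 12.99, 12.7, 21.9 and 8.99 CPM (0.82 ± 0.15, edgeR adjusted p = 0.0232). All 3 were higher in 4 of 4 libraries. The calls of all 3 were lost when either TCRβ library was left out, and 43 genes rose and 35 fell without TCRβ Tcf7KO, 25 and 8 without TCRβ Tcf7WT, against 206 and 157 with all 4. Whether the change of effectors differs from that of GTPases was not tested.

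The remaining lists of the pathway gave few or no calls in the Gzma comparison. Of 17 docking and fusion genes, 29 exchange factors, 28 GTPase-activating proteins and 7 prenylation and membrane-extraction genes, 0 passed, against 1.83% of all genes higher and 1.4% lower. Stx11, the syntaxin of granule fusion, was at 0.66 ± 0.19 (edgeR adjusted p = 0.0896), Madd, an exchange factor of Rab3 and Rab27, at 0.48 ± 0.11 (0.0545), and Dennd2d at -0.68 ± 0.17 (0.0622). Tbc1d4, a GTPase-activating protein of Rab10, was at -0.41 ± 0.11 (0.0692). Without epithelial-like cells these 4 passed, with edgeR adjusted p values of 0.0359, 0.0167, 0.0254 and 0.0303. In that fit more of all 10944 genes passed too, 3.92% higher and 4.05% lower. Of 9 tested granule content genes 5 rose and 0 fell, against the same 1.83% and 1.4%: Gzmc (2.43), Prf1 (1.35), Serpinb6b (0.66), Serpinb9 (0.63) and Nkg7 (0.45). Prf1 encodes perforin and the serpins block granzymes.

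Between the sorts, most lists held called genes, and over all cells effectors had the most that were higher in TCRγδ cells. In Tcf7WT 7 of 23 effectors, 3 of 30 GTPase-activating proteins, 2 of 17 docking genes, 1 of 29 exchange factors and 0 of 7 prenylation genes were called higher in TCRγδ cells, against 7.97% of all genes. Called lower were 0, 1, 1, 1 and 1 of them, against 7.07%. In Tcf7KO 5 of 24 effectors, 4 of 28 GTPase-activating proteins, 2 of 17 docking genes, 1 of 29 exchange factors and 0 of 7 prenylation genes were called higher, against 10.7%, and 0, 2, 1, 2 and 0 lower, against 7.47%. Without epithelial-like cells 6 of 23 effectors and 3 of 30 GTPase-activating proteins were called higher in Tcf7WT, against 6.93% of all genes. In Tcf7KO they were 4 of 23 and 5 of 28, against 6.22%. Called lower without those cells were 0 and 0 in Tcf7WT, against 7.53%, and 1 and 2 in Tcf7KO, against 8.72%. In Gzma-positive cells 0 of 22 effectors were called higher in either genotype, against 336 of 8966 genes (Tcf7WT) and 710 of 10205 (Tcf7KO). In Gzma-negative cells 4 of 23 and 3 of 22 were, against 768 of 10901 and 1014 of 10210. Effectors called lower in Gzma-negative cells were 2 of 23 and 2 of 22, against 610 and 783 of all genes. Sytl2 was higher by 0.86 (0.60 to 1.11) in Tcf7WT and 0.80 (0.56 to 1.04) in Tcf7KO, Optn, a Rab8 effector, by 1.02 and 1.001, Stx11 by 0.95 (0.63 to 1.27) and 0.63 (0.32 to 0.94), and Stx3 by 0.63 and 1.40. Lyst, the granule-size gene of Chediak-Higashi syndrome, was lower by -0.87 (-1.22 to -0.53) and -1.08 (-1.43 to -0.76), and Dennd2d by -0.81 and -0.68. Of the granule content genes 4 of 10 and 2 of 9 were called higher, among them Gzmb (2.56 and 1.62), and 0 lower.

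Between genotypes few genes that act on Rabs were called, while granule content genes were called in both sorts. In TCRβ cells the exchange factors Dennd5a (1.14, 0.77 to 1.51) and Rin2 (-1.21) were called, of 29, and 0 docking genes, effectors, GTPase-activating proteins or prenylation genes, against 1.9% of all genes higher and 3.23% lower. Of 10 granule genes Gzmb (1.53), Gzmc (1.87), Serpinb6b (0.74) and Serpinb9 (0.74) were called higher there. In TCRγδ cells Sytl1 (-0.61), Dennd3 (-0.61), Tbc1d1 (-0.61) and Evi5 (-0.67) were lower and Myo5b (1.79) was higher, against 4.45% and 6.44% of all genes. Of the granule genes Gzmb (0.60), Gzmc (0.94) and Serpinb6b (0.68) were higher, and Gzmk, with 6 UMIs in Tcf7KO and 200 in Tcf7WT, was lower. Without epithelial-like cells Rin2 and Myo5b had too few UMIs for a call, Dennd3 was not called (-0.57) and Bicd1 was called lower (-0.82).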

How the data were processed

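The deposited files hold UMI counts per gene and cell, 1 matrix for each of the 4 libraries, made by the authors. Per the labels' protocols the libraries came from a 10X 3′ kit. Seurat 3.0.0 and the builds GRCm38 and mm10 are named in the submitters' processing notes. Other upstream steps are not given in the sources used here. Every deposited cell was used. Each file lists its own genes (13331 to 14661), and 12698 genes were in all 4.

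Members were chosen by symbol. The members, roles, pathway lists and markers were chosen with earlier results of these data known. Counts were summed per library and scaled to its total (CPM). Ratios between libraries have no test. Ratios carry exact 95% intervals for counting error only, are given from 20 UMIs and called from 50 UMIs at 1.5-fold.

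Gzma-positive and Gzma-negative sums were tested with edgeR 4.0.16 (TMM, filterByExpr, robust quasi-likelihood, library as a block, Benjamini-Hochberg over 11241 genes) in R 4.3.3, with DESeq2 1.42.0 as an alternative. The labels do not say that the libraries are separate animals, so p-values measure the spread between these libraries. On simulated counts for this comparison (11235 genes) the test recovered 2% of genes changed 1.25-fold, 46% at 1.5-fold, 98% at 2-fold and 100% at 3-fold, and 7.52% of calls were false. The simulation gave every gene the same fixed dispersion, which was not estimated from these data. It changed only well-counted genes, each by the same fold in every library. The rates hold for that setting and may differ for real genes.

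Named genes were all secretory members, the called members, and from each other list up to 4 with the largest ratios; the most abundant members and the label checks were named besides. Scrublet marked 1, 1, 3 and 6 cells, under 0.5% of each library, too few to rely on, and no doublet was removed; cells of very high UMI count may hold doublets. Cycling cells were those with at least 3 UMIs of 8 cycling genes. The alternatives were other scalings, each cell weighing the same, cells thinned to 1624 UMIs, no epithelial-like or no cycling cells, no doublets by Scrublet, 500 to 3500 genes per cell, other count minimums, and leaving out each library. Fits without epithelial-like cells and 1 library were added after seeing the data.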

Additional observations from a re-analysis of the deposited data

Results flagged for a closer look

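Rab21 had a ratio of TCRγδ over TCRβ of 0.21 in Tcf7WT and -0.22 in Tcf7KO (log2 of CPM), with intervals on opposite sides of 0. The 2 ratios were set side by side for that reason, and the difference between them was not tested. Its levels were 70.5, 88.2, 81.5 and 75.9 CPM in the order TCRβ Tcf7WT, TCRβ Tcf7KO, TCRγδ Tcf7WT, TCRγδ Tcf7KO.

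Rab symbols that were not listed in all 4 libraries lie outside the comparisons, and 5 of them had more UMIs in some library than a count of 0 allows for (3). These were Rab39b with 13 UMIs, Rab42 with 12, Rab33a with 10 and Rab39 with 10, all in TCRβ Tcf7WT, and the antisense transcript Rab11fip4os1 with 11 in TCRγδ Tcf7WT.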

How the results depend on the processing

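The Gzma comparison was paired by library. Between groups no paired analysis was possible because each group is 1 library. Without the library block in the Gzma comparison (no replicate block), 4 genes rose and 1 fell, and 0 GTPases were called.

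The log2 ratio of summed GTPases turned or moved under TMM and DESeq2 scaling to 0.030 and 0.027 (TCRβ genotype), 0.073 and 0.075 (TCRγδ genotype), 0.030 and 0.024 (sort, Tcf7WT) and 0.074 and 0.072 (sort, Tcf7KO). In Gzma-negative cells it was 0.105, -0.070 and 0.085 for the last 3, and without epithelial-like cells it was -0.001 for the sort in Tcf7KO.

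Counts of called GTPases are given here with the count over all genes in brackets. In the TCRβ genotype comparison, lower: 2 without cycling cells (Rab23, Rab25, against 459 of 11622 genes). There were 0 thinned (297 of 10707), at 100 UMIs (237 of 10764) or in Gzma-positive cells (334 of 9504). With each cell weighing the same (463 of 11777) and in Gzma-negative cells (315 of 11413) the 1 was Rab25. In the TCRγδ genotype comparison, higher: 1 without epithelial-like cells (Rab17, 224 of 10047) and 1 with 500 to 3500 genes (Rab17, 203 of 10032). There was 1 thinned (Rab6b, 203 of 8441) and 1 at 100 UMIs (Rab25, 424 of 9219). Lower: 2 (Rab28, Rab3d) with each cell weighing the same (649 of 10512), without epithelial-like cells (512 of 10047) or with 500 to 3500 genes (551 of 10032). In the sort comparison of Tcf7WT, higher: 0 without epithelial-like cells (771 of 11123), thinned (651 of 10253) or in Gzma-positive cells (336 of 8966). Lower: 1 thinned (Rab32, 748 of 10253). In that of Tcf7KO, higher: 1 (Rab17) without epithelial-like cells (680 of 10925) or with 500 to 3500 genes (689 of 10876) and 0 thinned (573 of 9813). Lower: 1 thinned (Rab28, 811 of 9813) and 1 in Gzma-positive cells (Rab33b, 426 of 10205). In the Gzma comparison, higher: 1 with no filter (Rab8b, 228 of 12697) and 2 at 3 or more Gzma UMIs (Rab8b, Rab19, 367 of 10686). There were 2 without epithelial-like cells (429 of 10944) and 1 without cycling cells (Rab11a, 228 of 11058). With 500 to 3500 genes there were 2 (404 of 10929), and 1 thinned (Rab8b, 321 of 9504). Leaving out 1 library gave 0 to 1 (25 to 218 of all genes), and 0 to 2 without epithelial-like cells too (165 to 492). The 1 was Rab8b without TCRγδ Tcf7KO (218 of 11216). In Gzma-negative cells the counts stayed but the genes changed. Rab1a, Rab6a and Rab25 were higher (590 of 7782) and Rab12 lower (392 of 7782) in the TCRγδ genotype comparison. Rab1a, Rab3d and Rab25 were higher in the sort comparison of Tcf7KO (1014 of 10210). With each cell weighing the same, Rab6b replaced Rab25 in the TCRγδ genotype comparison (407 of 10512). The cause was not tested.

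Signs of called ratios turned for Rab25 in the TCRγδ genotype ratio with each cell weighing the same (-0.33) and with 500 to 3500 genes (-1.29), and for Rab11fip4 in Gzma-negative cells (0.37). Among ratios not called, the TCRγδ genotype ratio turned for Rab3d (0.80) and Rab3a (0.20) in Gzma-negative cells and for Rab3d (0.099) and Rab37 (0.042) in thinned cells, and the Tcf7KO sort ratio for Rab3d without epithelial-like cells (-0.64), among others. In the Gzma comparison they turned for values near 0: Rab3a at 0.005 (no filter), 0.005 (3 or more Gzma UMIs), 0.071 (no epithelial-like cells), 0.046 (no cycling cells), 0.119 (500 to 3500 genes) and 0.279 (thinned), and Rab11b at 0.094 (thinned). With a library left out, with or without epithelial-like cells, Rab3a ranged from -0.187 to 0.179, Rab8a from -0.029 to 0.084 and Rab11b from -0.119 to 0.021. Among alternatives of counts of GTPases and of their summed level, 127 stayed close and 41 moved.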
